A study of Rattus norvegicus with 110 samples.

Results

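The genes described here are 200 of the 31998 gene identifiers in the count tables, chosen because their mRNA was far more abundant in kidney than in uninjured liver. Of the 3560 identifiers with a mean of at least 50 CPM, the count divided by the library's total in units of 1e6, in the kidneys of vehicle males, the 200 with the largest log2 ratio of mean kidney CPM over mean liver CPM in the same groups, after adding 0.1 CPM to both means, were taken as members. This ratio ran from 6.19 to 14.99 over the members, with a median of 8.73. At the limit, the members at ranks 198 (Alpl), 199 and 200 had log2 ratios of 6.22, 6.22 and 6.19, and the next 3 genes, which were left out, had 6.19, 6.17 and 6.14. The kidney and vehicle liver levels made the choice and are therefore given as a description.

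Livers came from male Sprague Dawley rats of an F2 generation, outbred animals with no genetic modification, whose F1 sire, F0 grandsire, both or neither had been given carbon tetrachloride (CCl4), a solvent that injures the liver. Treated ancestors received 50% CCl4 in olive oil by gavage 3 times a week for 6 weeks, with 2 weeks of recovery before mating, and their controls received olive oil. The F2 males of cohort A had neither ancestor treated, those of cohort B a treated F1 sire, those of cohort C a treated F0 grandsire and those of cohort D both. Within each cohort F2 males were gavaged for 39 days, 3 times a week at 0.5 ml/kg, with olive oil (vehicle, groups 11, 14, 17 and 20 for cohorts A to D), with 8% CCl4 (low dose, groups 12, 15, 18 and 21) or with 50% CCl4 (high dose, groups 13, 16, 19 and 22). Each group had 7 males, except group 17 with 6, which gave 83 liver libraries and, from the vehicle males alone, 27 kidney libraries. Kidneys of CCl4-treated males were not analysed here, so nothing below describes what CCl4 did in kidney.

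The kidney recovers filtered salts, sugars, amino acids and proteins through transporters and endocytic receptors of the tubule, and its proximal tubule carries a dense brush border of membrane enzymes. Liver shares some of this chemistry, such as amino acid synthesis and glutathione turnover, but distributes it among hepatocytes, bile duct cells and other cells. CCl4 is turned into a reactive radical by hepatocyte cytochrome P450, kills hepatocytes around the central veins and, on repeated dosing, leads to scarring. In whole-tissue RNA a larger number of cells of a type and more RNA per cell cannot be told apart.

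Only 9 of the 200 identifiers could be paired with a gene symbol, through gene lists the study had chosen on these same samples for an ancestral effect. By role they were the metabolic enzymes Ggt1 (gamma-glutamyltransferase, which breaks down glutathione at the cell surface), Psat1 (phosphoserine aminotransferase, in serine synthesis), Gatm (glycine amidinotransferase, the first step of creatine synthesis) and Alpl (the tissue-nonspecific alkaline phosphatase). Lrp2 (megalin, the endocytic receptor of the proximal tubule) and Atp1b1 (a beta subunit of the sodium pump) serve uptake and transport. Cys1 (cystin, a protein of the primary cilium), Eps8 (an actin regulator downstream of the epidermal growth factor receptor) and Plau (urokinase, which activates plasminogen) completed the set. Of the 192 genes on lists of kidney, bile duct and other cell type markers, 14 (7.29%) had an identifier and 2 of those, Lrp2 and Gatm, were members, so a check of the members against cell types was void. The other 191 members are described by counts, by their rank in the kidney to liver ratio or, for 4 of them, by identifier.

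Promoters were shown for Psat1, which rose in injured liver, and for Gatm, which did not pass the test there, since of the 7 named members with a sequence only these held any of 4 motifs searched. The sequences were taken from RefSeq on build GRCr8 and hold 250 bases before and 50 bases after the start of each gene, on the minus strand, at chr1:222645359-222645658 for Psat1 and chr3:130129044-130129343 for Gatm. Capitals mark the letters CCAAT or, for the other strand, ATTGG.
Psat1: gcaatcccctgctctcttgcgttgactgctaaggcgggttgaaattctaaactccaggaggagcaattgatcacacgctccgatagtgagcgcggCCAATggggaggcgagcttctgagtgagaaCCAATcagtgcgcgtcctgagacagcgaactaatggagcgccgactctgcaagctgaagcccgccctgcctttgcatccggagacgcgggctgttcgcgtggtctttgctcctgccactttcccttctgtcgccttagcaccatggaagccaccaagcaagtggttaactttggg
Gatm: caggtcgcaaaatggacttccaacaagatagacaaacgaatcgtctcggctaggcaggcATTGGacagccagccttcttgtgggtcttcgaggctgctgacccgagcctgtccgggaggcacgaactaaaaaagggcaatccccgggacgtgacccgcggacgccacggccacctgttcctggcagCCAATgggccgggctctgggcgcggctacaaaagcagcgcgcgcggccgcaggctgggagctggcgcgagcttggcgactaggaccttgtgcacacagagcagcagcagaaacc
Psat1 held CCAAT at -155 and -125 from the start, and Gatm held ATTGG at -191 and CCAAT at -64. Of 33469 promoters of the same length, 37.5% held CCAAT on either strand, 14.2% TATAAA, 7.33% TGANTCA and 7.45% GTTAAT. A match of letters is a description and not a binding site, and both genes carried the same motif although their dose responses below were unlike.

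In kidney all 200 members had counts in every library, and together they took 9.46% of all kidney counts against 0.0251% of the counts in vehicle livers. Liver libraries held 31.6e6 to 51.3e6 counts and kidney libraries 21.96e6 to 35.1e6. Levels are given below as scaled CPM, that is CPM divided by the library's TMM factor, which removes shifts shared by most genes. The scaling mattered here, because on plain CPM the median log2 ratio of high dose over vehicle over all genes tested was 0.62, against -0.01 after scaling. Liver and kidney were scaled separately, so percentages of the kidney level are approximate. Per transcript length, Ggt1 ranked 4, Atp1b1 7, Gatm 16, Plau 26, Lrp2 39, Alpl 46, Psat1 73, Eps8 93 and Cys1 161 among the 200 members in kidney.

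Vehicle livers held low but measurable traces of most members. Of the 200 genes, 140 to 173 had a count in each vehicle liver, 139 to 182 in each low-dose liver and 151 to 184 in each high-dose liver. Members at 0 in every library numbered 7 of 200 over the 27 vehicle livers, 6 over the 28 low-dose livers and 2 over the 28 high-dose livers. A count of 0 over a whole dose group allows a level of up to 0.00285 CPM in vehicle, 0.00266 CPM in low-dose and 0.00272 CPM in high-dose livers, for counting error only. Of the 7 members at 0 in vehicle, 4 had 3 or fewer counts over all high-dose livers, and the highest of the 7 reached 123 counts there.

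Some libraries stood apart. In 3 livers (group 13 replicate 9, group 15 replicate 9 and group 17 replicate 9) 184, 182 and 173 members had a count. These males share the animal number 9 within their groups, which the study's scheme places on 1 necropsy date. The other livers of animal number 9 had 146 to 157 members with a count. No label gives a date, so all necropsy dates used below were assigned from animal numbers. The 47 members whose median count over the 83 livers was 0 summed to 154, 154 and 85 counts in these libraries, against medians of 24, 9 and 7 counts over the high-dose, low-dose and vehicle livers. In no liver did the summed level of these 47 members exceed 0.0185% of that in kidney. The highest summed levels of all 200 members came from 2 other high-dose livers, group 16 replicate 7 and group 22 replicate 7, in which the 47 members summed to 124 and 109 counts.

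The summed level of the 200 members was higher with dose in every cohort. In the vehicle livers the lowest, median and highest summed levels were 183, 254 and 281 scaled CPM. In the low-dose livers they were 265, 344 and 519 scaled CPM. In the high-dose livers they were 368, 610 and 1289 scaled CPM. Every high-dose liver was above every vehicle liver, whereas the low-dose livers overlapped both other dose groups. By cohort, the high-dose median was 705 in A, 625 in B, 548 in C and 583 scaled CPM in D, and the vehicle median was 270, 254, 255 and 240 scaled CPM. By necropsy date the high-dose median was 618, 685, 822 and 543 scaled CPM on dates 1 to 4, and the low-dose median 338, 376, 395 and 325 scaled CPM. The kidneys lay between 79318 and 106109 scaled CPM, so even the highest liver remained far under any kidney. A small number of genes carried the sum, since 5 members made up 42.1% and 8 members 50% of the difference between the high-dose and low-dose means.

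**Figure D1:**
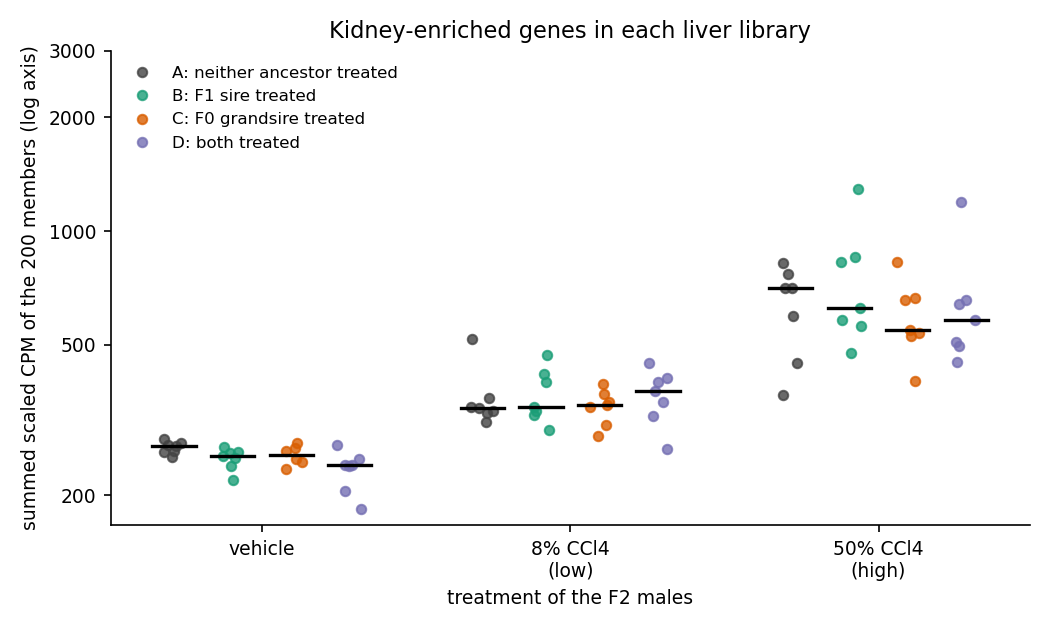
Summed level of the 200 kidney-enriched genes in each of 83 livers (scaled CPM, log axis) by treatment of the F2 males, coloured by cohort, with bars at the cohort medians. High-dose livers sit between 368 and 1289, above all vehicle livers (183 to 281), and the high values at 1289 and 1196 belong to group 16 replicate 7 and group 22 replicate 7.

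The first question was whether more CCl4 raised the members in liver. The contrast of high with low dose compared the treated livers alone, whereas the members were chosen on kidney and vehicle liver values. The contrast was not wholly apart from that choice, since vehicle groups entered the spread and the filter on low counts, and the choice took genes that are mostly low in vehicle liver. Of the 200 members, 65 (32.5%) rose and 9 (4.5%) fell between low and high dose (edgeR quasi-likelihood test over 12 groups, Benjamini-Hochberg adjusted p under 0.1 and absolute log2 fold change over 1). Over all genes tested the same rule called 15.9%, with 11% higher and 4.99% lower. The share of members that fell was near this background. Genes low in vehicle liver rose more often than others. Shares of the rises by range of vehicle level are therefore given after the account of the filter. The rises had log2 fold changes from 1.01 to 5.30 with a median of 1.82, and the falls from -2.28 to -1.03. Another 47 members (23.5%) passed the adjusted p with a log2 fold change of 1 or less in size, beside 48.9% of all genes tested. The median log2 fold change was 0.75 over the 164 members tested and 0.02 over all genes tested.

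These counts need the filter beside them. A gene was tested if its summed count exceeded 10 in at least 1 liver group, which 164 of the 200 members did. Of these, 148 passed in a vehicle group, 11 only in a high-dose group, 1 only in a low-dose group and 16 in all only in CCl4-treated groups, while the other 36 members were not tested. Of the 65 members that rose, 59 had a summed count over 10 in a low-dose group and 6 passed through high-dose livers alone. The 100 most kidney-enriched members, of which 64 were tested, held 31 rises, and the other 100, all tested, held 34.

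Members already measurable in vehicle liver rose more often than all genes tested in the same range of vehicle level. Of the 41 members with a mean of at least 1 scaled CPM in vehicle livers, 10 (24.4%) rose from low to high dose. Of all genes tested in that range, 2.99% rose. The range has no upper limit, and 7 of these members had a mean over 10 scaled CPM. Members and all genes were not matched for level within it. How much of this gap follows from level was therefore not tested. Among the 83 members from 0.1 to 1 scaled CPM, 33 (39.8%) rose, against 19.1% of all genes at that level. Of the 76 members under 0.1 scaled CPM, 40 were tested and 22 rose. Beside the 29.3% of all genes tested at that level this count is not read, since genes this low can enter the test through the high-dose livers alone. Of the other 3360 genes with a mean kidney CPM of at least 50, 2.44% rose and 2.89% fell, with a median log2 fold change of -0.11. Across the 164 members tested, kidney level and the log2 change from low to high dose had a rank correlation of -0.19, given as a description over genes that share libraries.

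Psat1 had the smallest adjusted p of the 9 named members for high against low dose. Its lowest, median and highest levels were 0.703, 1.36 and 2.81 scaled CPM in vehicle, 1.03, 2.62 and 5.16 in low-dose and 2.89, 9.42 and 20.97 in high-dose livers. Every high-dose liver was above every vehicle liver, and low-dose livers overlapped both. From low to high dose Psat1 rose by a log2 fold change of 1.82 ± 0.15 (SE, edgeR quasi-likelihood test, adjusted p = 2.5e-17). In cohorts A to D this log2 fold change was 1.52, 2.02, 1.59 and 2.14. At high dose Psat1 reached on average 3.63% of its kidney level.

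Ggt1, the brush border enzyme whose liver form is found mainly on bile duct cells, moved at the high dose. It ran from 0.233 over a median of 0.729 to 2.01 scaled CPM in vehicle livers and from 0.283 over 0.685 to 3.38 in low-dose livers. High-dose livers spread more widely, with 0.561, 2.97 and 17.2 scaled CPM, and overlapped both other dose groups. The log2 fold change from low to high dose was 2.35 ± 0.26 (SE, edgeR adjusted p = 4.58e-12), and low dose against vehicle gave 0.09 ± 0.27 (adjusted p = 0.87). The rise passed the adjusted p in each cohort, with log2 fold changes of 1.89, 2.75, 2.77 and 1.98 in cohorts A to D. Even so, the high-dose mean of Ggt1 was 0.387% of its kidney level.

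Cys1, the cilium gene, rose at lower levels. It spanned 0.0899, 0.293 and 0.556 scaled CPM in vehicle, 0.234, 0.529 and 0.965 in low-dose and 0.251, 0.932 and 7.39 in high-dose livers, so all dose groups overlapped. From low to high dose its log2 fold change was 1.16 ± 0.19 (SE, edgeR adjusted p = 3.39e-07). By cohort it was 0.77 in A (adjusted p = 0.131), 1.62 in B, 1.46 in C and 0.80 in D (adjusted p = 0.121), and it was called in B and C. The highest value came from group 16 replicate 7, and without the pair of livers with the highest summed levels the log2 fold change was 0.93, under the limit of 1.

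Plau, Eps8, Atp1b1 and Alpl were higher at high than at low dose by less than the fold limit. Their log2 fold changes from low to high dose were 0.72 for Plau, 0.64 for Eps8, 0.42 for Atp1b1 and 0.74 for Alpl, all with an adjusted p under 0.1 (edgeR). Against vehicle, high dose gave log2 fold changes of 1.51, 1.06, 1.05 and 1.16 in the same order, a description since vehicle livers chose the members. Plau, the plasminogen activator, had medians of 4.15, 7.20 and 9.62 scaled CPM in vehicle, low-dose and high-dose livers. Atp1b1, the sodium pump subunit, had medians of 26.5, 42.0 and 54.2 scaled CPM. For each of these genes the ranges of the dose groups overlapped.

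Lrp2 and Gatm, textbook proximal tubule genes, did not pass the test for dose. Lrp2 had medians of 13.1, 14.99 and 16.6 scaled CPM in vehicle, low-dose and high-dose livers, with overlapping ranges. Its log2 fold change from low to high dose was 0.21 ± 0.12 (SE, edgeR adjusted p = 0.128). Gatm, on the creatine pathway, had medians of 11.9, 11.4 and 11.1 scaled CPM, and a log2 fold change of -0.08 ± 0.07 (SE, adjusted p = 0.356). High dose against vehicle gave 0.22 for Lrp2 and -0.07 for Gatm. Both estimates had smaller SEs than that of Psat1.

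**Figure D2:**
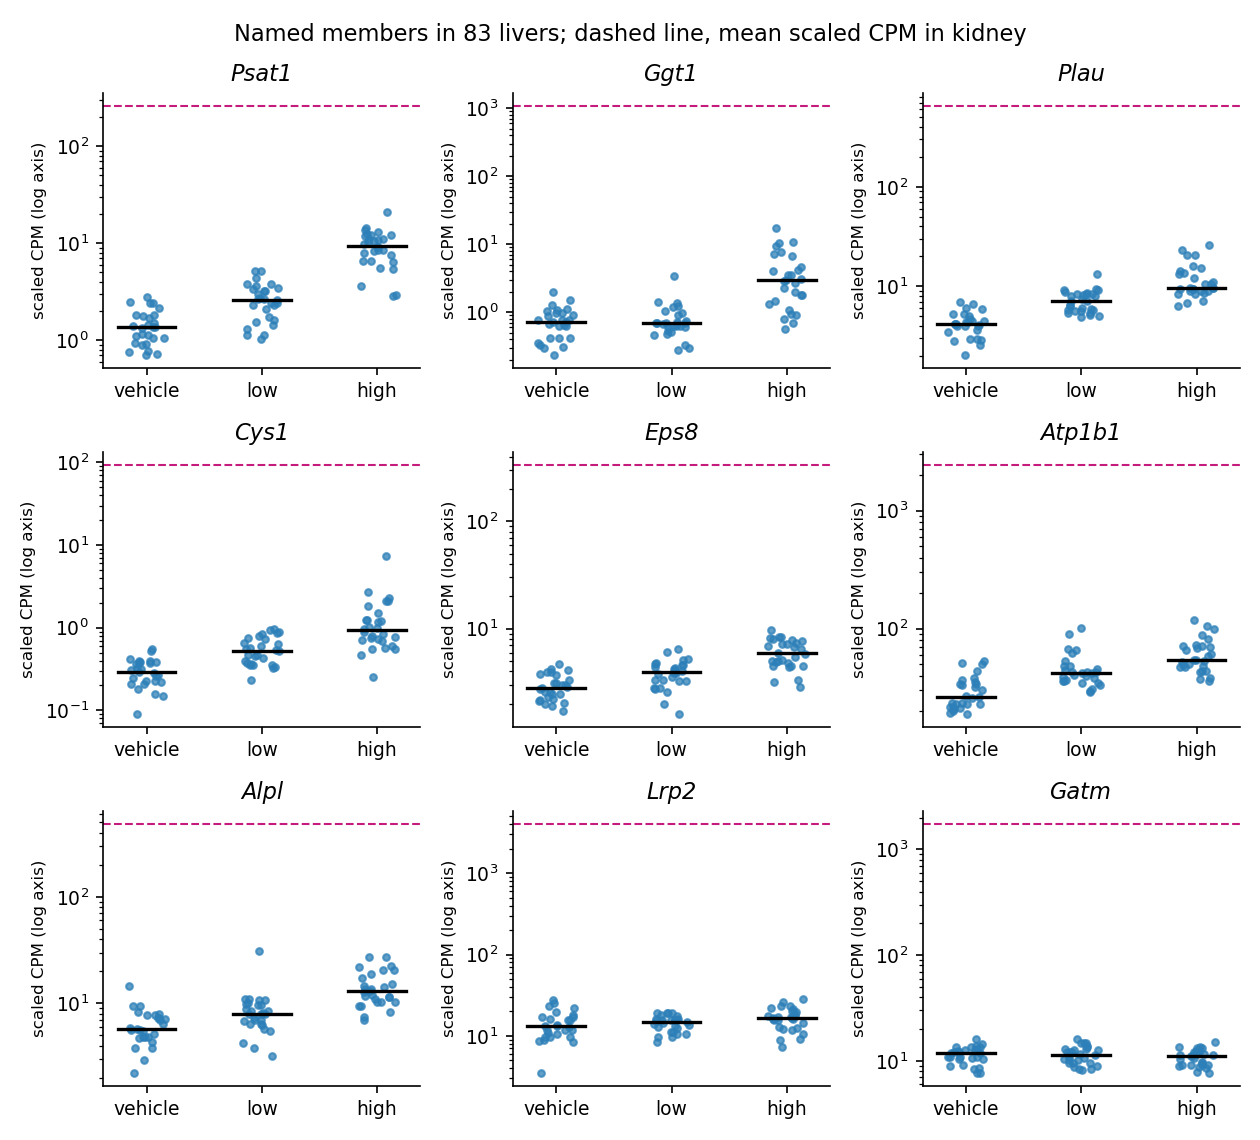
Scaled CPM (log axes) of the 9 named members in vehicle, low-dose and high-dose livers, one point per liver, with a black bar at each dose median and a dashed line at the mean in kidney. Psat1 and Ggt1 have high-dose medians of 9.42 and 2.97, Gatm has medians of 11.9, 11.4 and 11.1, and every gene remains under its kidney line.

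Among members with no symbol, the largest rise from low to high dose was that of ENSRNOG00000017762.7, at rank 36. It had at most 0.120 scaled CPM in any vehicle liver and 0.117 in any low-dose liver, but 0.0418, 1.26 and 7.12 scaled CPM at the lowest, median and highest of the high-dose livers. Its log2 fold change from low to high dose was 5.30 ± 0.39 (SE, edgeR adjusted p = 1.01e-19). The dose groups overlapped only at the lowest high-dose values.

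ENSRNOG00000042950.3, at rank 99, had a median of 0.0946 and a highest value of 0.360 scaled CPM at low dose. Its high-dose livers ran from 0.544 over 1.98 to 5.56 scaled CPM, with no overlap. The log2 fold change was 4.39 ± 0.27 (SE, edgeR adjusted p = 4.37e-23). Of all 200 members, 2 (1%) had every high-dose liver above every low-dose liver, against 0.0631% of all genes tested.

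Falling members were fewer. ENSRNOG00000017084.3, at rank 193, had medians of 2.51, 1.34 and 0.217 scaled CPM in vehicle, low-dose and high-dose livers, and a log2 fold change from low to high dose of -2.28 ± 0.19 (SE, edgeR adjusted p = 1.65e-17). ENSRNOG00000057072.1, at rank 155, had medians of 3.44, 2.14 and 0.429 scaled CPM and a log2 fold change of -2.03 ± 0.24 (SE, adjusted p = 1.43e-11). Low-dose and high-dose livers overlapped for both genes.

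Doses of CCl4 against vehicle share the vehicle livers that chose the members, so these counts are a description. At high dose against vehicle 91 members were higher and 12 lower, where 25.3% of all genes were called, 18.5% higher and 6.73% lower. At low dose against vehicle 21 were higher and 5 lower, where 6.26% of all genes were called, 5.76% higher and 0.505% lower. The members were also chosen again without a cohort and counted in that cohort, whose vehicle livers then did not choose them. In this way 89, 106, 85 and 95 members were called at high dose against vehicle in cohorts A to D, where 21.7%, 26.4%, 21.7% and 22.6% of all genes were. At low dose against vehicle 19, 16, 16 and 21 members were called in this way, where 3.7%, 3.65%, 4.46% and 4.25% of all genes were. This loosens the link and does not remove it, since these sets shared 197, 198, 198 and 196 genes with the 200 members. All vehicle groups also entered the spread and the filter, and the shares of all genes are not matched for vehicle level. High-dose and vehicle livers did not overlap for 12 higher members (6%), Psat1 among them, against 2.81% of all genes tested.

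The member at rank 157 had a higher median at low than at high dose. Its lowest, median and highest levels were 0.0844, 1.82 and 4.11 scaled CPM in vehicle, 16.5, 49.1 and 104 in low-dose and 11.7, 39.1 and 256 in high-dose livers. Both treated groups lay wholly above vehicle and overlapped each other widely. Low dose against vehicle gave a log2 fold change of 4.89 ± 0.28 (SE, a description), and high against low dose gave 0.29 ± 0.23 (SE, edgeR adjusted p = 0.275).

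Members reached only a small part of their kidney level in liver. The median over the 200 members was 0.166% of the kidney level in vehicle, 0.191% in low-dose and 0.365% in high-dose livers. Members over 1% of the kidney level numbered 19, 28 and 55 in the same order. Over 10% there was 1 at low dose and 3 at high dose, the members at ranks 146, 148 and 157 with 12.2%, 15.1% and 22.7%.

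**Figure D3:**
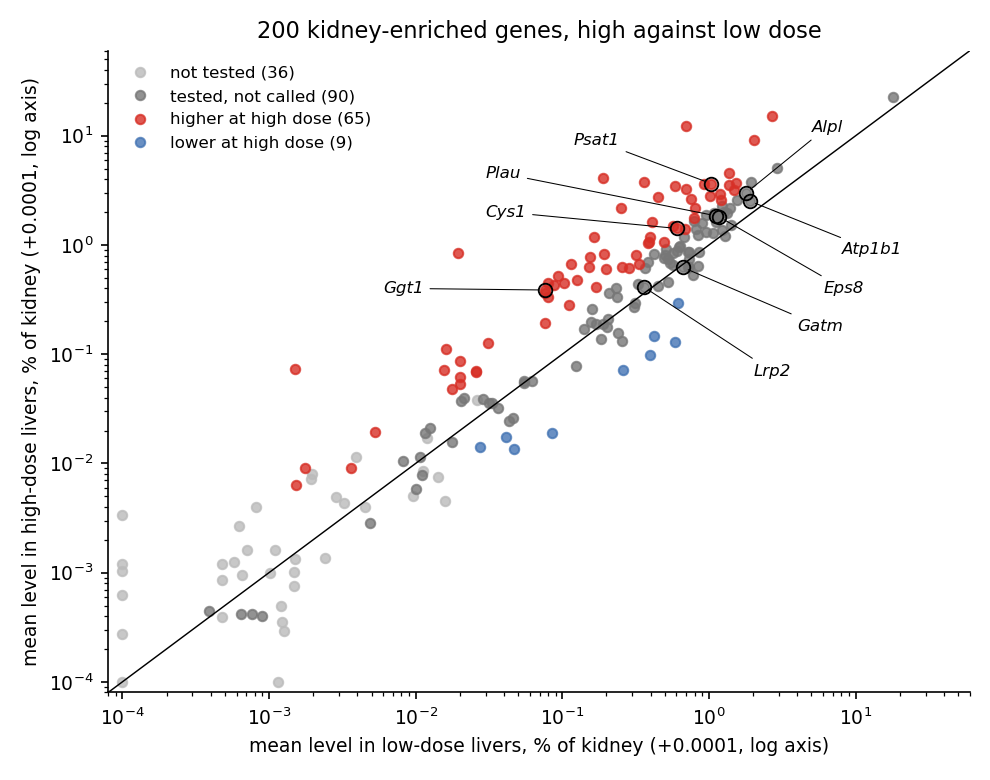
Mean level of each of the 200 members in low-dose livers (x axis) and high-dose livers (y axis) as a percent of its mean kidney level, on log axes with 0.0001 added, coloured by the call of high against low dose, with the 9 named members ringed and a line where both doses are equal. The 65 red points lie above the line and the 9 blue points below it, and 3 points exceed 10% at high dose.

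The rise was seen in each cohort. From low to high dose 48 members rose and 6 fell in cohort A, where 11.9% of all genes were called, 7.36% higher and 4.49% lower. In cohort B 67 rose and 14 fell, where 16.5% of all genes were called, 10.8% higher and 5.71% lower. In cohort C 55 rose and 7 fell, where 12.5% were called, 8.81% higher and 3.69% lower, and in cohort D 52 rose and 9 fell, where 11.2% were called, 8.5% higher and 2.74% lower. Of the 200 members 35 (17.5%) rose and 5 (2.5%) fell in all 4 cohorts, beside 4.02% and 1.48% of all genes tested. A positive log2 fold change in all 4 was found for 106 members (53%) and for 34.5% of all genes tested. None of the shares given here for rises is matched for vehicle level, and genes low in vehicle liver rose more often. The response to high dose against vehicle in cohorts B, C and D was tested against that in cohort A, and 0 of the 164 members tested and 0% of all genes were called (edgeR interaction terms at adjusted p under 0.1, and DESeq2 also 0). At an unadjusted p under 0.05 there were 15, 15 and 16 members (9.15%, 9.15% and 9.76% of those tested), beside 6.23%, 4.62% and 8.25% of all genes.

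The counts from low to high dose were recomputed without the libraries that stood apart, a choice made after seeing the data. Without the 3 livers of animal number 9 named above, 66 members rose and 9 fell, beside 11.3% and 4.67% of all genes tested. Without group 16 replicate 7 and group 22 replicate 7, 53 rose and 8 fell, beside 9.78% and 4.63% of all genes tested. Among the high-dose livers, the highest value was found in group 16 replicate 7 for 65 members and in group 22 replicate 7 for 21.

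The kidneys of vehicle males addressed whether ancestral liver injury was linked to expression in another organ. Over the 27 kidneys the members varied more than other genes of the organ, with a median coefficient of variation of 16.3% against 11.2% for all genes with a mean of at least 50 CPM.

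For a treated F0 grandsire, 0 of the 200 members passed the test in kidney, where 0.0109% of all genes did (edgeR, adjusted p under 0.1 and mean normalised count over 50). At an unadjusted p under 0.05 there were 38 members (19%), 11 higher and 27 lower, beside 8.70% of all genes. DESeq2 called 4 members, all lower (Gatm, Cys1 and a pair with no symbol), or 2% of the members beside 0.397% of all genes. Symbols came from the study's lists of genes with an ancestral effect in these samples. Calls of named members in kidney, here and below, are therefore not independent evidence. The log2 fold changes of the members ran from -0.50 to 0.82, and 199 were under 0.5 in size. Their median was -0.02, against 0.01 for all genes tested. For a treated F1 sire 0 members and 0% of all genes were called by edgeR, with 16 members (8%) at an unadjusted p under 0.05 beside 6.67% of all genes, and DESeq2 called 0.

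With both ancestors treated (group 20) against neither (group 11), 1 member was higher and 1 lower in kidney, where 0.702% of all genes passed (edgeR, adjusted p under 0.1). With the necropsy date as a block 3 were higher and 3 lower, where 0.947% of all genes passed. At an unadjusted p under 0.05 there were 40 members (20%), 16 higher and 24 lower, beside 12.1% of all genes, not matched for level. Groups 14 and 17 against group 11, which share these control kidneys, had 0 members called by edgeR and by DESeq2, with 11 (5.5%) and 20 (10%) at an unadjusted p under 0.05, beside 4.78% and 5.88% of all genes. DESeq2 called 9 members (4.5%) for group 20 against 11, beside 3% of all genes.

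Cys1 was the member that was lower. Its lowest, median and highest kidney levels were 99.2, 137 and 158 scaled CPM in group 11 and 41.9, 69.1 and 90.7 scaled CPM in group 20, with no overlap. Groups 14 and 17 lay between, with means of 88.3 ± 22.4 and 87.1 ± 20.8 scaled CPM (SD, n = 7 and 6), and overlapped both. For group 20 against 11 the log2 fold change was -0.92 ± 0.18 (SE, edgeR adjusted p = 0.0338). Without date 2 the log2 fold change was -0.95 (adjusted p = 0.412) and without date 4 it was -1.08 (adjusted p = 0.169), so the call was lost while the fold was no smaller. Without date 1 it was -0.74 (adjusted p = 0.0930), and each of these dates left 5 males in each group. For the F0 term the log2 fold change was -0.46 ± 0.13 and for the F1 term -0.45 ± 0.13 (SE, adjusted p = 0.308 and 0.599).

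The member at rank 113 was the one that was higher. Its means were 43.8 ± 5.10 scaled CPM in group 11 and 57.3 ± 6.30 in group 20 (SD, n = 7 each), and its ranges of 39.1 to 51.8 and 49.7 to 64.8 overlapped. The log2 fold change was 0.39 ± 0.08 (SE, edgeR adjusted p = 0.0420). It was not called without date 1, 2 or 4 (adjusted p = 0.156, 0.412 and 0.360), with log2 fold changes of 0.38, 0.36 and 0.36. Over the whole list, leaving out necropsy date 1 left 1 call and leaving out date 2 or 4 left 0 calls for group 20 against 11, with 5 males in each group, and leaving out date 3 gave 11, with 6 in each. Of all genes tested, 0.0951% passed without date 1, 0.00557% without date 2, 2.36% without date 3 and 0 without date 4.

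Gatm, Eps8 and Lrp2 were not called by edgeR, whereas DESeq2 called Gatm (adjusted p = 0.0271) and Eps8 (adjusted p = 0.0318) for group 20 against 11. Gatm had means of 2215 ± 568 scaled CPM in group 11, 1857 ± 510 in group 14, 1510 ± 335 in group 17 and 1359 ± 349 in group 20 (SD, n = 7, 7, 6 and 7). Its log2 fold change for group 20 against 11 was -0.70 ± 0.20 (SE, edgeR adjusted p = 0.115), and the groups overlapped. Eps8 had a log2 fold change of -0.37 ± 0.10 (adjusted p = 0.110), and Lrp2 one of -0.12 ± 0.12 (adjusted p = 0.774).

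**Figure D4:**
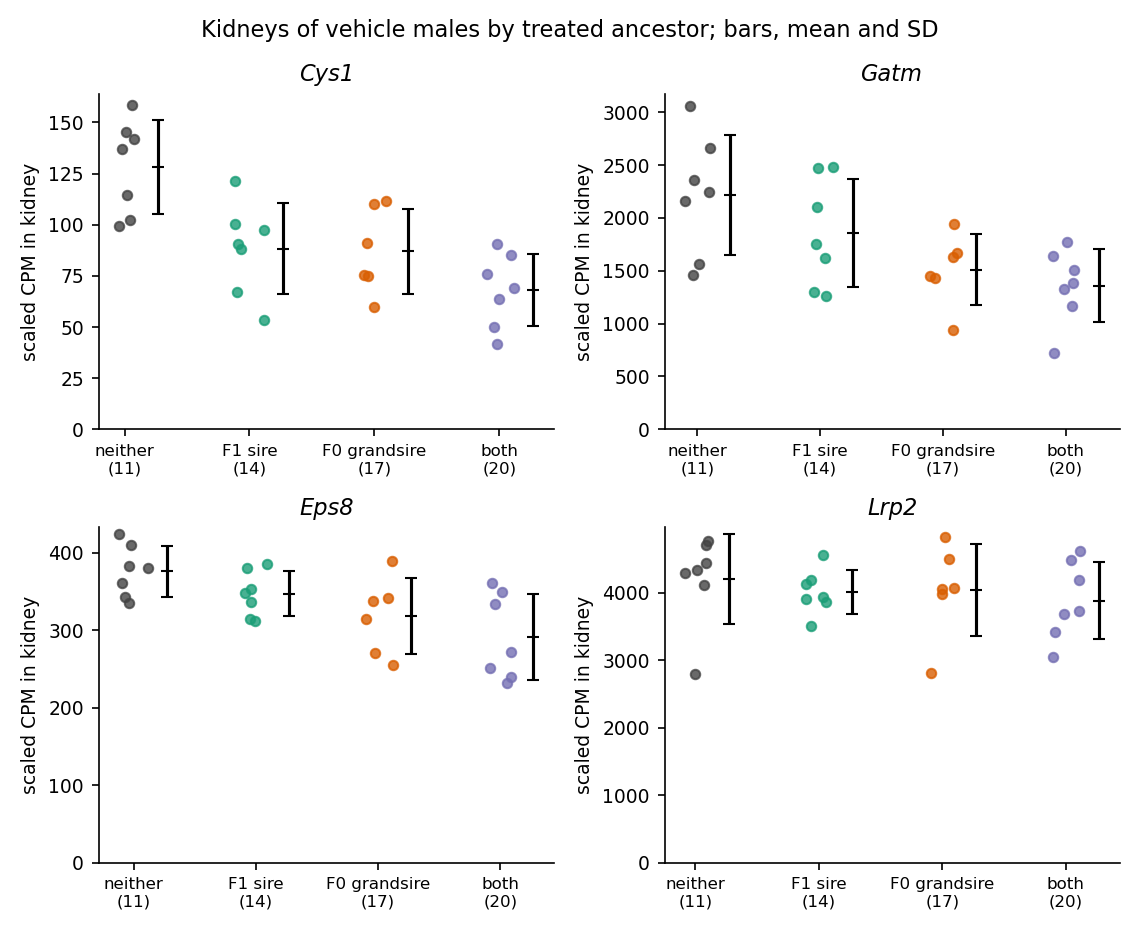
Scaled CPM of Cys1, Gatm, Eps8 and Lrp2 in the kidneys of vehicle males by treated ancestor (group number in parentheses), one point per male, with the mean and SD beside each group. Cys1 has a mean of 128 in group 11 and 68.1 in group 20 with no overlap, whereas the groups overlap for the other genes. All genes shown have a symbol through the study's lists of genes with an ancestral effect in these samples.

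In liver the F0 term was fitted beside F1 treatment and F2 dose, and a call needed a mean normalised count over 50. After a treated grandsire 1 member was higher and 6 were lower (3.5% of 200). Of all genes tested 7.34% were called, 3.88% higher and 3.45% lower. In vehicle liver 159 of the 200 members had a mean under 1 scaled CPM, so many were too low for this rule. The shares of members and of all genes in this paragraph are therefore not read against each other. All 7 members called were named members, which follows from the symbols coming from the study's own list of such genes. Their direction is therefore not independent evidence. Lrp2 was higher with a log2 fold change of 0.27 ± 0.10 (SE, edgeR adjusted p = 0.0793). The lower members were Eps8 at -0.36, Psat1 at -0.50, Atp1b1 at -0.34, Plau at -0.30, Ggt1 at -0.58 and Alpl at -0.33 in log2. With the necropsy date as a block 4 members were called, beside 7.32% of all genes, and Ggt1, Alpl and Lrp2 lost the call at log2 fold changes of -0.54, -0.32 and 0.26. Leaving out necropsy date 1 or 2 left 3 members called, beside 4.85% and 6.3% of all genes. Without date 1 the log2 fold change of Lrp2 was 0.09, and without date 2 those of Ggt1, Atp1b1 and Plau were -0.28, -0.19 and -0.17. The F1 term called 0 members by edgeR, where 0.0474% of all genes were called, 0.021% higher and 0.0263% lower, and DESeq2 called 0 members. At an unadjusted p under 0.05 there were 10 members (6.10% of those tested), beside 10.3% of all genes.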

How the data were processed

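Poly(A) RNA of liver and kidney was sequenced as stranded paired-end libraries. The authors quantified transcripts with Salmon 0.14.0 against the Ensembl rat annotation and summed them by gene, and the deposited tables hold, for each gene in each sample, estimated counts beside a mean transcript length. These mean transcript lengths, deposited by the authors, served as offsets in an alternative fit and for levels per length. Estimated counts were rounded to whole numbers. Genes whose counts summed to more than 10 within any group were kept, normalised with TMM and fitted with edgeR 4.0.16 (R 4.3.3, limma 3.58.1) by the quasi-likelihood test, with Benjamini-Hochberg adjustment over all genes tested, as 12 liver groups, 4 kidney groups or, for ancestry, F0 and F1 treatment with F2 dose in liver. DESeq2 1.42.0 was an alternative, and the authors used another version of DESeq2. Scaled CPM is CPM divided by the TMM factor, with factors set to a geometric mean of 1 over the vehicle samples of the organ. The scripts were tested on simulated data (Python 3.11.15, pandas 2.3.3, numpy 2.4.6, matplotlib 3.10.9).

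The members and the gene lists were chosen with earlier results of these data known. Named members followed a fixed rule: the highest in kidney, the largest dose changes among those called with a mean of at least 1 CPM over the livers, the smallest kidney p values, the members with kidney levels and almost no liver counts, those with a symbol and those beside the rank limit, with identifiers printed for at most 2 that rose and 2 that fell. Of the members the rule picked, those without a symbol are given by counts or rank. The 2 unnamed risers printed were those with the largest log2 fold changes. No label gives a necropsy date, and dates were assigned from animal numbers by the study's scheme of staggered animals. Replicates are different males, and litters were not modelled. Floors cover counting error only (3 counts). Animal numbers were not taken to pair samples across groups, since not every pair correlated over 0.1: same-numbered males of different groups had a median correlation of their deviations of 0.0262 in liver (138 of 419 pairs over 0.1) and -0.0302 in kidney (8 of 39 pairs).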

Additional observations from a re-analysis of the deposited data

Results flagged for a closer look

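Single samples stood far from the others of their group in 18 of 160 sets tested by Dixon's criterion, where chance gives about 1 in 20 sets. No explanation was tested.

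The summed level of the 200 members was highest in group 12 replicate 4 at 519 scaled CPM (group median 340) and in group 22 replicate 7 at 1196 scaled CPM (group median 583). Group 22 replicate 7 was also the highest of its group for Plau at 26.2 scaled CPM and for Eps8 at 9.77 scaled CPM, and group 12 replicate 4 was the highest of its group for Ggt1 at 3.38 scaled CPM.

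Ggt1 was highest, by a wide gap, in group 11 replicate 4 at 2.01 scaled CPM, in group 19 replicate 10 at 9.31 and in group 21 replicate 1 at 1.43. Psat1 was highest in group 17 replicate 4 at 1.40 scaled CPM and lowest in group 19 replicate 7 at 2.96. Cys1 in group 16 replicate 7 reached 7.39 scaled CPM, where the group median was 1.02, and Alpl in group 15 replicate 5 reached 30.9 scaled CPM, where it was 8.11. In vehicle liver, Lrp2 was highest in group 11 replicate 10 at 25.2 scaled CPM and Gatm in group 11 replicate 9 at 16.2.

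In kidney, Lrp2 was lowest in group 11 replicate 2 at 2796 scaled CPM, where the median was 4340. Plau was highest in group 11 replicate 7 at 805 scaled CPM and lowest in group 14 replicate 1 at 469, and Alpl was highest in group 11 replicate 9 at 560.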

How the results depend on the processing

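With 100 members in place of 200, calls were 35 for high against low dose, 41 for high dose against vehicle, 8 for low dose against vehicle, 0 for kidney group 20 against 11 and 1 for the liver F0 effect. Choosing members per transcript length gave 16 for low dose against vehicle, and so did cohort B alone and cohort C alone, also with the members chosen without that cohort. Over the 8 alternative fits, high against low dose gave 64 to 76 calls, high dose against vehicle 89 to 111 and low dose against vehicle 24 to 28. Without 1 necropsy date, high against low dose gave 68 to 79. The interactions gave 0 under every alternative run.

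Kidney counts were less stable, and the cause was not tested. DESeq2 gave 4 members for the F0 effect and 9 for group 20 against 11, of 73 and 552 genes called in all. With edgeR and members of at least 20 CPM in kidney, the F0 effect gave 1 and group 20 against 11 gave 5. The main edgeR counts were 0 and 2. For group 20 against 11 a mean count filter gave 4, the necropsy date as block 6, and leaving out dates 1, 2, 3 and 4, which also removes males, gave 1, 0, 11 and 0. The liver F0 effect gave 4 with the date as block, 3, 3 and 4 without dates 1, 2 and 3, 4 at adjusted p under 0.05 and 2 with members of at least 20 CPM. With the animal number as replicate block, the count was 5 for group 20 against 11 and 4 for the liver F0 effect, and it changed no other count by over 1.5 times. The labels tie no same-numbered males and not every pair correlated over 0.1, so the numbers were not taken to pair the samples. As a hint from the data alone, 20 of 83 livers and 1 of 27 kidneys correlated best with a library of their own number.

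Of 765 values for single named members under the alternatives, 719 kept their side of the threshold, 34 lost a call, 12 gained one and 0 changed direction while called. The depth limits members near a count of 0, of which 36 could not be tested in liver.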
